A study of Gallus gallus with 6 samples.

Results

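The miR-130, miR-301 and miR-454 family was examined in the liver of laying hens. Its members were taken by name from the 565 mature miRNAs listed in the deposited count table. The names miR-130a, miR-130b, miR-301a, miR-301b and miR-454 matched 10 rows, which are the 5p and the 3p product of each of 5 hairpins. The rule itself uses no measured value, although the family was picked for description with earlier results of these data known. MiR-130c, a relative with its own hairpin, falls outside these names and is given only for comparison.

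A miRNA hairpin is cut into a short duplex, of which one strand, the 5p or the 3p arm, is usually loaded into Argonaute and the other is largely degraded. The 3p products of this family carry the same seed, the bases near the 5′ end that pair with target mRNAs. Their 5p products do not carry that seed. In mammals, miR-130 represses PPARG, the central regulator of fat cell differentiation, and miR-130b and miR-301b repress the LDL receptor and the cholesterol exporter ABCA1. MiR-301a and miR-454 have been studied mostly as growth-promoting miRNAs in human tumours. In the chicken genes of RefSeq (assembly GRCg7b), all 5 hairpins were matched. MIR130B, MIR454, MIR301A and MIR130A lie next to one another in this order, with no annotated gene between them. MIR301B lies apart from these, next to MIR130C within the span of SKA2P1.

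Small RNA was sequenced from the livers of female Lushi green-shell hens of 30 weeks (L30, egg-laying) and of 20 weeks (L20, juvenile, before laying), with 3 libraries at each age. The hens were kept in cages in one environment with free access to food and water, and no treatment or genetic change is given. The series sets L20 as the baseline. Whole liver tissue was taken, so hepatocytes, vessels and blood cells contribute together, and age and laying cannot be told apart.

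The libraries held between 3864984 and 8804077 reads on listed miRNAs in L30, against between 7135289 and 14822854 in L20. Listed miRNAs took 17.7% to 42.6% of the raw reads in L30 and 47.8% to 56.3% in L20, so every L30 library lay below every L20 library, and L30-3 was the lowest of all. Levels are given as TPM, the reads of a miRNA per 1000000 clean reads, and TPM therefore carries this difference. A limit of 3 reads corresponded to 0.141 to 0.223 TPM in L30 and to 0.113 to 0.206 TPM in L20. Low counts were filtered with edgeR, which left 236 miRNAs to be tested, and their median log2 fold change of L30 over L20 was −0.86 with clean reads as library size and −0.10 with the summed reads on listed miRNAs. The hepatocyte miRNA miR-122 was abundant in every library, with 12896 to 38273 TPM in L30 and 50943 to 71220 TPM in L20 over its arms. In the edgeR fit described further on, with adjusted p values called up to 0.05, 24.6% of all tested miRNAs were called as lower in L30. Of the marker rows, 1 of 2 hepatocyte rows (miR-122), 2 of 2 endothelial rows (miR-126), 2 of 3 erythroid rows (miR-451 and miR-144), 3 of 4 leukocyte rows (miR-142, miR-155 and miR-223), 0 of 3 mesenchymal rows (miR-199 and miR-214) and 1 of 6 epithelial rows (miR-200a, miR-200b and miR-429) were lower in L30, and none was higher. Their summed levels were 6458 to 14792 TPM in L30 and 28732 to 42751 TPM in L20 for the endothelial rows, and 943 to 3664 TPM in L30 and 4627 to 6736 TPM in L20 for the leukocyte rows. The erythroid rows summed to 288 to 1197 TPM in L30 and 1597 to 3181 TPM in L20. The mesenchymal rows had 1121 to 3214 TPM in L30 and 2604 to 5506 TPM in L20, and the epithelial rows 258 to 744 TPM in L30 and 713 to 866 TPM in L20. These marker levels and calls are on the scale of clean reads, and so carry the lower share of reads on listed miRNAs in L30. The part of these cells in the results on the family was not tested. In whole tissue, fewer cells of a type and less RNA per cell cannot be told apart.

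The 3p products made up nearly all of the family's reads at both ages. MiR-454-3p had 1675, 943 and 635 TPM in L30-1, L30-2 and L30-3, against 1844, 1725 and 1597 TPM in L20-1, L20-2 and L20-3. The libraries of the ages overlapped, since L30-1 exceeded L20-3. MiR-130a-3p had 1353, 949 and 476 TPM in the L30 libraries, against 1736, 1634 and 1048 TPM in the L20 libraries, again with overlap. MiR-130b-3p, from a hairpin linked to the LDL receptor in mammals as miR-301b is, had 485, 338 and 219 TPM in L30, against 717, 821 and 582 TPM in L20. No L30 library of miR-130b-3p reached the lowest L20 library. MiR-301a-3p had 271, 182 and 76.4 TPM in L30, against 381, 352 and 275 TPM in L20. MiR-301b-3p, the product of the separate locus, had 192, 131 and 91.1 TPM in L30, against 277, 270.2 and 229.8 TPM in L20. For miR-301a-3p and miR-301b-3p as well, the L30 libraries all lay below the L20 libraries, although by a narrow margin for miR-301a-3p.

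By mean TPM over the 6 libraries, miR-454-3p ranked number 29 of the 565 listed miRNAs, miR-130a-3p number 33, miR-130b-3p number 42, miR-301a-3p number 60 and miR-301b-3p number 65. Not every step in this order exceeded the spread between libraries. The log2 ratio of miR-454-3p over miR-130a-3p lay between −0.01 and 0.61, so these products were near each other and changed places in L30-2. MiR-130a-3p exceeded miR-130b-3p in every library, by a log2 ratio of 0.85 to 1.49, and miR-130b-3p exceeded miR-301a-3p in every library, by 0.84 to 1.52. MiR-301a-3p and miR-301b-3p changed places in L30-3, where their log2 ratio was −0.25, against 0.26 to 0.50 in the other 5 libraries.

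The 5p products were scarcer and spanned a wider range. MiR-130b-5p had 169, 114 and 42.2 TPM in L30, against 74.6, 42.0 and 42.8 TPM in L20. L30-1 and L30-2 lay above all L20 libraries, while L30-3 lay between them. MiR-130a-5p had 58.1, 37.7 and 13.2 TPM in L30, against 43.3, 16.7 and 15.5 TPM in L20, with overlap. MiR-301a-5p had 3.48, 2.45 and 1.74 TPM in L30, from 68, 33 and 37 reads, against 2.51, 0.979 and 1.79 TPM in L20, from 51, 26 and 26 reads. The remaining 5p products were near the detection limit. MiR-454-5p had 5, 4 and 3 reads in L30, against 13, 15 and 8 reads in L20. MiR-301b-5p had 13, 4 and 4 reads in L30, against 7, 11 and 7 reads in L20.

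**Figure D1:**
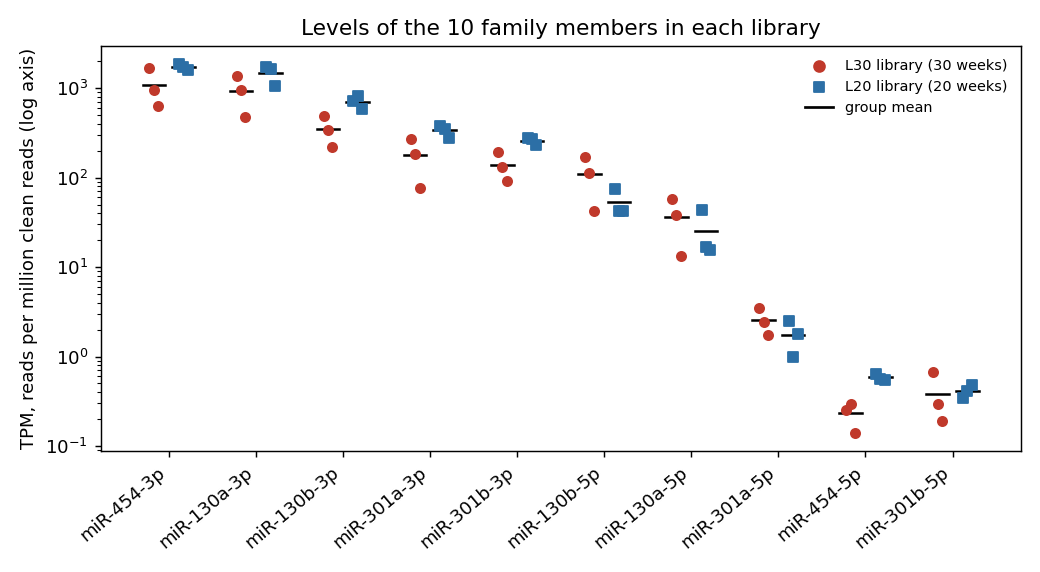
TPM (reads per 1000000 clean reads, log axis) of the 10 family members, with a point for each library, L30 left of L20, and a line at each group mean. The 3p products lie from 76.4 to 1844 TPM, whereas the 5p products run down to 0.141 TPM, and the L30 libraries lie lower for miR-130b-3p and higher on average for miR-130b-5p.

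The first question was whether any member differed between the ages. Scaled to the clean reads, all 5 3p products had negative log2 fold changes and 3 of the 4 tested 5p products had positive ones, but none of the 9 tested members was called in edgeR, where 24.6% of all tested miRNAs were called as lower. MiR-130b-3p averaged 347 ± 133 TPM in L30 and 707 ± 120 TPM in L20 (SD, n = 3 each), and its log2 fold change was −1.03 (SE 0.51, edgeR adjusted p = 0.114). MiR-301a-3p averaged 177 ± 97.5 TPM in L30 and 336 ± 54.8 TPM in L20, with a log2 fold change of −0.93 (SE 0.53, edgeR adjusted p = 0.183). MiR-301b-3p followed with 138 ± 50.8 TPM in L30 and 259 ± 25.6 TPM in L20, a log2 fold change of −0.91 (SE 0.55, edgeR adjusted p = 0.204). MiR-454-3p averaged 1084 ± 534 TPM in L30 and 1722 ± 123 TPM in L20, and miR-130a-3p averaged 926 ± 439 TPM in L30 and 1473 ± 371 TPM in L20. Their log2 fold changes were −0.67 each (SE 0.47 and 0.48, edgeR adjusted p = 0.278 and 0.280).

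On the other arm, miR-130b-5p averaged 108 ± 63.5 TPM in L30 and 53.1 ± 18.6 TPM in L20 (SD, n = 3 each), and its log2 fold change was 1.03 (SE 0.56, edgeR adjusted p = 0.158). MiR-130a-5p averaged 36.3 ± 22.5 TPM in L30 and 25.2 ± 15.7 TPM in L20, and miR-301a-5p averaged 2.56 ± 0.873 TPM in L30 and 1.76 ± 0.767 TPM in L20. Their log2 fold changes were 0.53 and 0.54 (SE 0.57 and 0.64, edgeR adjusted p = 0.50 and 0.544). MiR-454-5p had a log2 fold change of −1.34 (SE 0.75, edgeR adjusted p = 0.168), from counts so low that it could pass the filter only through its higher L20 libraries. MiR-301b-5p did not pass the filter.

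Among all 236 tested miRNAs, 58 were called in edgeR, all as lower in L30 and 0 as higher. With the summed reads as library size, 38 were called as lower and 29 as higher, with TMM factors 30 as lower and 34 as higher, and with upper quartile factors 14 as lower and 63 as higher. Of the 9 tested members, 1 reached an unadjusted p of at most 0.05 in edgeR, namely miR-130b-3p as lower, where 37.3% of all tested miRNAs were lower at that threshold. MiR-130b-3p, miR-301a-3p, miR-301b-3p and miR-454-5p, 4 of the 9, had every L30 library below every L20 library in TPM, as did 46.2% of all tested miRNAs. For miR-454-5p the filter favoured this separation, since it could pass only through its higher L20 libraries. Without L30-1, 4 of the 3p products, all but miR-130a-3p, were called as lower, as were 41.4% of all miRNAs tested without it. Without L30-3, miR-130b-5p was called as higher, as were 1.98% of all miRNAs tested without that library. A limma fit on log2(TPM + 1) called 0 of the 9 members, where 29.2% of all tested miRNAs were called as lower. At an unadjusted p of at most 0.05 in that fit, 3 of the 9 were lower, where 40.3% of all tested miRNAs were. DESeq2 with its own size factors called 3 members as higher, miR-130b-5p, miR-130a-5p and miR-301a-5p, where 17.8% of all tested miRNAs were.

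Relative to the other miRNAs of the same library, the summed 3p products had near-equal means at both ages, and the summed 5p products were higher in L30. The 3p reads of the 5 members together took 0.883%, 0.766% and 0.824% of the reads on listed miRNAs in L30-1, L30-2 and L30-3, against 0.855%, 0.860% and 0.761% in L20-1, L20-2 and L20-3. The means were 0.825% ± 0.0588 in L30 and 0.825% ± 0.0561 in L20 (SD, n = 3 each). The summed 5p reads were 514, 466 and 316 per 1000000 listed reads in L30, against 209, 109 and 124 in L20, so that no L20 library reached the lowest L30 library. Measured in the same way, miR-130b-5p had 375, 343 and 232 reads per 1000000 listed reads in L30, against 129, 75.3 and 87.2 in L20. MiR-301a-5p had 7.72, 7.39 and 9.57 in L30, against 4.33, 1.75 and 3.64 in L20, again without overlap. In this measure, 19.5% of all tested miRNAs had every L30 library above every L20 library. MiR-130a-5p, at 129, 114 and 72.4 in L30 and 74.7, 30.0 and 31.5 in L20, overlapped because L20-1 lay above L30-3. MiR-454-5p went the other way, with 0.568, 0.896 and 0.776 in L30, against 1.10, 1.01 and 1.12 in L20, so that every L30 library lay below every L20 library, as for 27.5% of all tested miRNAs. Its separation is no independent result, since it passed the filter only through its higher L20 libraries. MiR-301b-5p had 1.48, 0.896 and 1.03 in L30, against 0.595, 0.742 and 0.981 in L20, and overlapped because L20-3 lay above L30-2.

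With the summed reads as library size, the log2 fold changes of the 3p products ranged from −0.24 for miR-130b-3p to 0.08 for miR-454-3p, and none was called in edgeR. Under the same scaling, miR-130b-5p rose by 1.71 on the log2 scale (SE 0.30, edgeR adjusted p = 0.00521) and miR-301a-5p rose by 1.34 (SE 0.42, edgeR adjusted p = 0.0473). MiR-130a-5p had a value of 1.21 (SE 0.41, edgeR adjusted p = 0.0550). In all, 2 of the 9 tested members were called as higher, where 12.3% of all tested miRNAs were. TMM factors called 3 members as higher, miR-130b-5p, miR-301a-5p and miR-130a-5p, where 14.4% of all tested miRNAs were. Against the median of all tested miRNAs, miR-130b-5p stood 1.89 higher on the log2 scale with the clean reads, 1.81 higher with the summed reads and 1.81 higher with TMM factors. The 3p products stood between −0.16 and 0.20 from that median with the clean reads and between −0.13 and 0.18 with the summed reads.

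**Figure D2:**
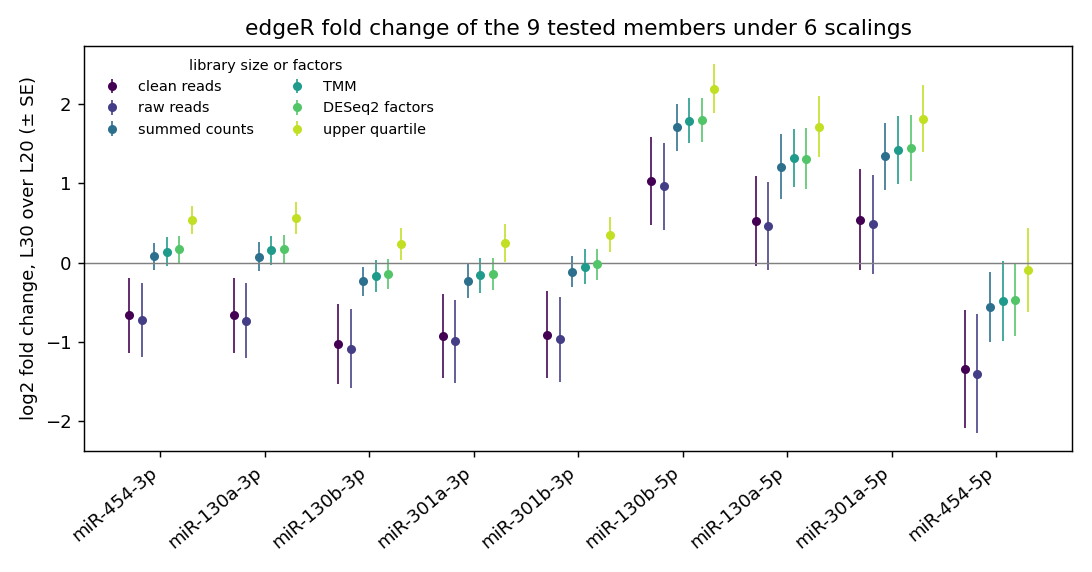
The edgeR log2 fold change of L30 over L20 (points) with its standard error (bars) for the 9 tested members under 6 choices of library size or factors. The scaling shifts all members together, and the 3p products go from −1.09 to 0.56 over the choices, while miR-130b-5p, miR-130a-5p and miR-301a-5p lie above 0 under each of the 6.

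The arms of 1 hairpin can be compared within a library, where the library size cancels. The log2 ratio of 5p over 3p reads was fitted with limma over the 64 hairpins that had both arms at 10 or more reads on average. Of the family, miR-130b, miR-130a and miR-301a entered this fit, and in each of the 3 the 5p arm gained on the 3p arm in L30. Over all 64 hairpins, 23 (35.9%) were called, 12 of them (18.8%) with a gain of the 5p arm and 11 with a loss, and the median change was 0.12. The less abundant arm, which is the 5p arm in these 3, gained in 31 of the 64 hairpins (48.4%). Among the 23 called hairpins, it gained in 16. In 28.1% of the hairpins, as in these 3, the L30 libraries all lay above the L20 libraries.

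In miR-130b, 3301 5p reads stood beside 9478 3p reads in L30-1, 1533 beside 4546 in L30-2 and 897 beside 4663 in L30-3. In L20 there were 1514 beside 14563, 1116 beside 21798 and 622 beside 8460. The 5p arm thus held 25.8% (95% Wilson interval 25.1 to 26.6), 25.2% (24.1 to 26.3) and 16.1% (15.2 to 17.1) of the hairpin's reads in the L30 libraries, against 9.42% (8.98 to 9.88), 4.87% (4.60 to 5.16) and 6.85% (6.35 to 7.39) in the L20 libraries. These intervals cover counting error only. They take each read as independent, although the cDNA was amplified by PCR and no molecular identifiers are described. The lowest L30 library, L30-3, lay well above the highest L20 library, L20-1. The mean log2 ratio was −1.82 ± 0.481 in L30 and −3.77 ± 0.511 in L20 (SD, n = 3 each), a gain of 1.95 (SE 0.36, limma adjusted p = 0.00823), or 3.86-fold. It was the third largest gain of a 5p arm among the 64 hairpins, and it was called in each of the 6 fits that left out 1 library.

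In miR-301a, the 5p arm was a far smaller share, at 1.27% (95% Wilson interval 0.999 to 1.60), 1.33% (0.948 to 1.86) and 2.23% (1.62 to 3.05) in the L30 libraries, against 0.656% (0.499 to 0.861), 0.277% (0.189 to 0.406) and 0.646% (0.441 to 0.945) in the L20 libraries. Each L30 library lay above each L20 library, and here L30-3 was the highest. The mean log2 ratio was −5.97 ± 0.462 in L30 and −7.64 ± 0.711 in L20 (SD, n = 3 each), a gain of 1.67 (SE 0.41, limma adjusted p = 0.0210), the sixth largest of the 64. Without L20-2 the limma adjusted p was 0.0531.

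In miR-130a, the shares of the 5p arm were 4.12% (95% Wilson interval 3.89 to 4.36), 3.82% (3.51 to 4.16) and 2.69% (2.40 to 3.02) in the L30 libraries, against 2.43% (2.28 to 2.60), 1.01% (0.923 to 1.11) and 1.45% (1.28 to 1.66) in the L20 libraries. The groups did not overlap, although L30-3 and L20-1 were near each other. The mean log2 ratio was −4.79 ± 0.339 in L30 and −6.00 ± 0.646 in L20 (SD, n = 3 each), a gain of 1.21 (SE 0.37, limma adjusted p = 0.0412). This call was not stable, since the limma adjusted p lay between 0.0971 and 0.114 without L20-2, L20-3, L30-1 or L30-2 in turn. When hairpins with 1 or more reads per arm on average were admitted, 102 hairpins were fitted and 4.90% were called with a gain of the 5p arm. MiR-130b was among these (limma adjusted p = 0.0394), but miR-301a and miR-130a were not (limma adjusted p = 0.0741 and 0.121).

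**Figure D3:**
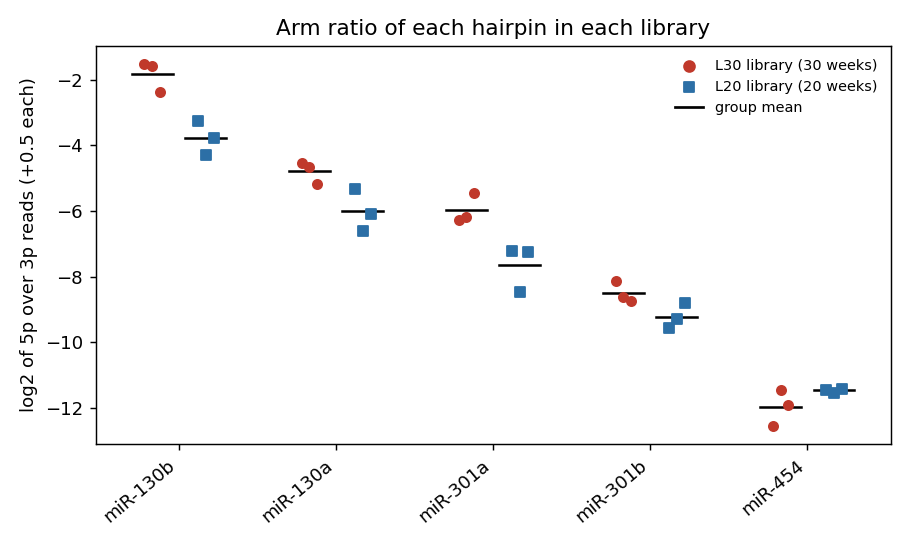
The log2 ratio of 5p over 3p reads (0.5 added to each arm) of the 5 hairpins, with a point for each library, L30 left of L20, and a line at each group mean. The L30 libraries of miR-130b, miR-130a and miR-301a lie above their L20 libraries, by 1.95, 1.21 and 1.67 on average. Those of miR-301b, which had too few 5p reads for the fit, lie 0.72 higher on average. They separate from L20 only through the added 0.5, since the 5p shares of miR-301b overlap. Those of miR-454 overlap with L20.

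The remaining 2 hairpins lay below the read minimum. In miR-301b, the 5p share was 0.345%, 0.227% and 0.206% in the L30 libraries, against 0.124%, 0.153% and 0.209% in the L20 libraries. Their 95% Wilson intervals ran from 0.0802 to 0.590 in L30 and from 0.0602 to 0.431 in L20. These shares overlapped. The log2 ratio, with 0.5 added to each arm, was 0.72 higher in L30 and did not overlap, as its nearest libraries were L30-3 at −8.75 and L20-3 at −8.80, and with the lower read minimum its limma adjusted p was 0.193. In miR-454, whose 5p arm gave 3 to 15 reads in a library, the 5p share was 0.0153%, 0.0315% and 0.0222% in L30 (95% Wilson intervals from 0.00652 to 0.0811), against 0.0347%, 0.0327% and 0.0344% in L20 (0.0174 to 0.0679). The difference in its log2 ratio, L30 minus L20, was −0.51, with a limma adjusted p of 0.342 at the lower minimum. Neither hairpin was called, and with so few 5p reads this does not show that the ages were alike. The neighbouring MIR130C hairpin gave 0.554%, 0.800% and 0.608% 5p reads in L30, against 0.656%, 0.203% and 0.321% in L20, with overlap and a change of 0.89 (SE 0.43, limma adjusted p = 0.141).

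Of the libraries, L20-1 had the highest 5p share of L20 in miR-130b, miR-130a and miR-301a alike, and L30-3, with the lowest share of reads on listed miRNAs, had the lowest 5p share of L30 in miR-130b and miR-130a. Without L30-3 the gain was 2.23 in miR-130b, 1.41 in miR-130a and 1.41 in miR-301a, and without L20-1 it was 2.20, 1.55 and 1.88. For the 2 most abundant 5p products, the log2 ratio of miR-130b-5p over miR-130a-5p was 1.54, 1.60 and 1.68 in L30, against 0.78, 1.33 and 1.46 in L20 (unadjusted p = 0.1 in an exact permutation test, two-sided, the least that 3 libraries against 3 can give). The libraries of the ages did not overlap, but this test cannot pass 0.05. No other pair of 5p products was compared, and L20-1 lay well below the other L20 libraries.

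**Figure D4:**
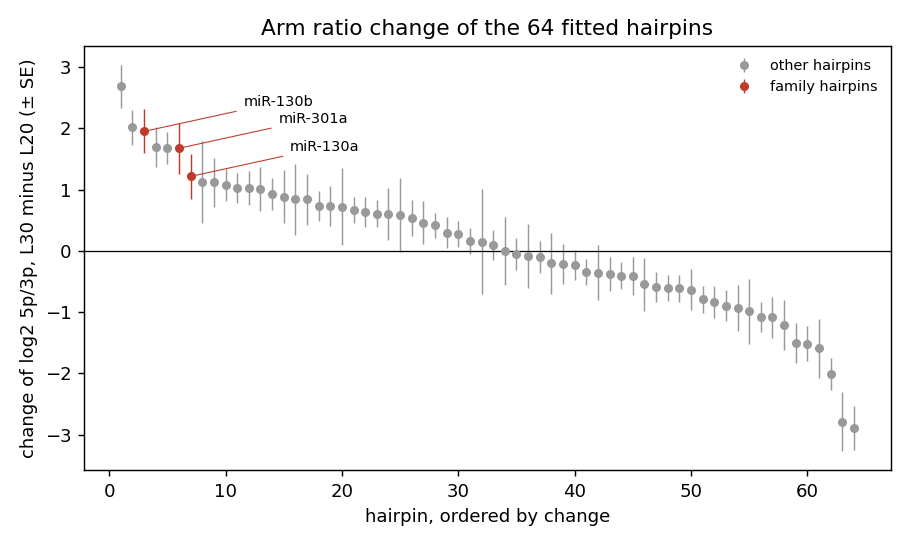
Change of the log2 5p over 3p ratio, L30 minus L20 (points), with its standard error (bars) for the 64 fitted hairpins in order of change. The family's fitted hairpins, in red, lie at 1.95, 1.67 and 1.21 among hairpins that changed in both directions, around a median of 0.12.

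The shared-seed 3p products were then compared with one another, which asks whether the make-up of the 5 members' 3p reads differed between the ages. MiR-130c-3p was left out and other miRNAs with this seed were not searched for, so these shares are not those of every miRNA with the seed. The shares of 4 of the 5 products overlapped between the ages. MiR-454-3p made up 42.1%, 37.1% and 42.4% of the 5 members' 3p reads in the L30 libraries, against 37.2%, 35.9% and 42.8% in the L20 libraries. MiR-130a-3p made up 34.0%, 37.3% and 31.8% in L30, against 35.0%, 34.0% and 28.1% in L20. Together these products thus carried most of the members' 3p reads in every library. MiR-130b-3p held 12.2%, 13.3% and 14.6% in L30, against 14.5%, 17.1% and 15.6% in L20. MiR-301b-3p held 4.83%, 5.14% and 6.08% in L30, against 5.59%, 5.63% and 6.16% in L20. Only the shares of miR-301a-3p did not overlap, at 6.82%, 7.17% and 5.10% in L30, against 7.68%, 7.34% and 7.37% in L20. Its mean share was 6.36% ± 1.11 in L30 and 7.46% ± 0.191 in L20 (SD, n = 3 each), with an exact two-sided permutation p of 0.1, the smallest that this design allows, and 0.5 after adjustment over the 5 shares. The 95% Wilson interval of a share reached at most 0.543 percentage points to either side.

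**Figure D5:**
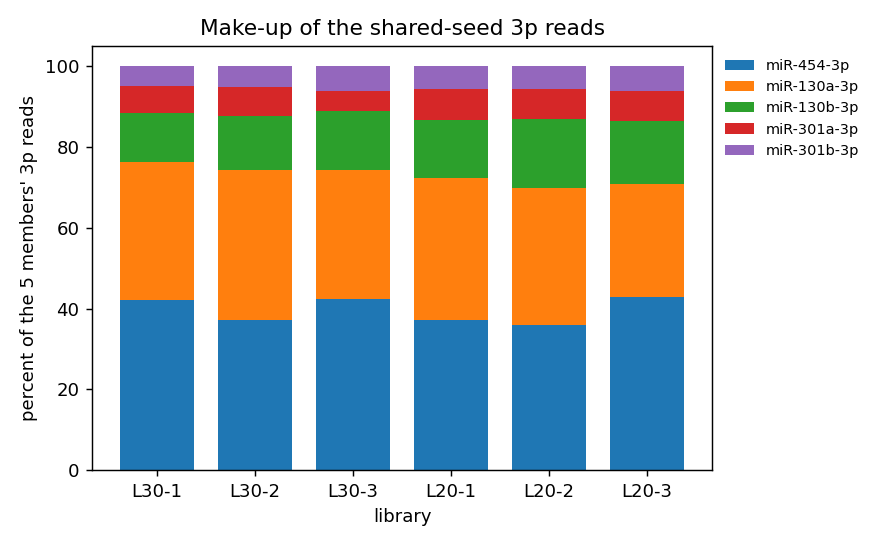
Share of each 3p product in the summed 3p reads of the 5 members (percent, stacked bars) in each library, L30 left of L20. MiR-454-3p and miR-130a-3p fill most of every bar, and the share of miR-454-3p runs from 37.1% to 42.4% in L30 and from 35.9% to 42.8% in L20.

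Over the 10 pairs of 3p products, the difference in log2 ratio between L30 and L20 was at most 0.34 in size. The libraries of the ages did not overlap in 3 pairs. The pairs share products, so their ratios are not independent, and pairs of other miRNAs were not compared. The ratio of miR-130a-3p over miR-301a-3p, which come from adjacent hairpins, was 2.45 ± 0.170 in L30 and 2.11 ± 0.156 in L20 (SD, n = 3 each), a difference of 0.34. That of miR-454-3p over miR-130b-3p, also from adjacent hairpins, was 1.60 ± 0.165 in L30 and 1.30 ± 0.201 in L20, a difference of 0.30. That of miR-454-3p over miR-301b-3p, from separate loci, was 2.93 ± 0.175 in L30 and 2.74 ± 0.0615 in L20, a difference of 0.19. In this last pair the nearest libraries almost met, L30-3 at 2.801 and L20-3 at 2.797. For miR-454-3p over miR-130b-3p they were L30-2 at 1.48 and L20-3 at 1.46. For miR-130a-3p over miR-301a-3p they were L30-1 at 2.32 and L20-2 at 2.21. Each of the 3 pairs had an exact two-sided permutation p of 0.1, which no result of 3 against 3 can undercut, and 0.333 after adjustment over the 10 pairs. The alignment tolerated mismatches and altered ends, so a read of 1 member may have been assigned to a similar one. This leaves the split between members uncertain. The counts behind the arm ratios carry the same limit, and its effect on them was not tested.

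Outside the family, miR-130c-3p, beside miR-301b in the genome, had 376, 249 and 138 TPM in L30, against 433, 389 and 320.5 TPM in L20, with a log2 fold change of −0.58 (SE 0.52, edgeR adjusted p = 0.398). Per 1000000 listed reads it had 836, 749 and 761 in L30, against 747, 697 and 653 in L20, so that its L30 libraries all lay above its L20 libraries. Of the products with a seed that overlaps that of the family, 3 were found by name. With clean reads as library size, 2 of them were called as lower in L30, where 24.6% of all tested miRNAs were. MiR-19a-3p, encoded in a cluster with miR-17, had 64.9, 25.6 and 25.7 TPM in L30, against 160.2, 130.1 and 151 TPM in L20 (log2 fold change −1.92, SE 0.57, edgeR adjusted p = 0.00668). MiR-19b-3p had 213, 86.1 and 93.4 TPM in L30, against 550.4, 572 and 519 TPM in L20 (log2 fold change −2.06, SE 0.54, edgeR adjusted p = 0.00279). MiR-148a-3p had a log2 fold change of −0.36 (SE 0.45, edgeR adjusted p = 0.561), but per 1000000 listed reads its L30 libraries, at 147608, 176681 and 208620, all lay above its L20 libraries, at 125886, 133951 and 126476. In that measure, 19.5% of all tested miRNAs had every L30 library above every L20 library. Over the 6 libraries, the 3 tested non-members whose log2 reads per 1000000 listed reads were nearest in pattern to the family's summed 3p reads were miR-183 (Pearson's r = 0.95), miR-99a-5p (r = 0.84) and miR-2188-3p (r = 0.80). These points share their library totals, and the family sum itself moved only between 7605 and 8834 reads on that scale. The 3 were picked for the highest r among all tested non-members, so the choice itself favours high values. MiR-183 was also scarce, at 11.9 to 20.7 reads per 1000000 listed reads.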

How the data were processed

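The members, lists and comparisons were chosen with earlier results of these data known. According to the study's methods, reads were filtered with the Fastx toolkit and the clean reads aligned with CLC Genomics Workbench to the mature miRNAs of miRBase, with mismatches and altered ends tolerated. The authors deposited raw read counts of 565 mature miRNAs in each of 6 libraries. The TPM values deposited by the authors are these counts scaled to raw reads. Here TPM was computed per 1000000 clean reads, with the totals that the study gives. Groups and columns were mapped by the sample titles, and 0 value columns were left unmapped.

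The test on counts was that of edgeR 4.0.16 (robust glmQLFit and glmQLFTest, R 4.3.3), with clean reads as library sizes, after filterByExpr (minimum count 10, minimum total 15). The SE is the log2 fold change over the root of the F statistic. Arm ratios, log2((5p + 0.5)/(3p + 0.5)), were fitted with limma 3.58.1 over all hairpins with both arms at 10 or more reads on average. P values were adjusted by Benjamini and Hochberg over each whole table and called at 0.05. Ratios and shares of 3p products were compared with exact permutation tests over 20 regroupings. No source states how many hens a library holds, so p-values measure the spread between libraries. Every matched member is named. Non-members were miR-130c, the miR-19 and miR-148 relatives by name and the 3 nearest in pattern. Mature sequences were not used here, so further seed-sharing miRNAs were not searched for. Hairpins were matched to RefSeq genes by symbol. Both fits were tested on simulated counts in which some miRNAs changed 4-fold. The edgeR fit recovered 66.2% of the changed miRNAs, and limma 45.9% of the hairpins with a changed arm ratio. Of their calls, 1.92% and 0% were false. Whether these rates hold for the measured counts, where the direction of calls changed with the scaling, was not tested. Alternatives were other scalings and filters, DESeq2 1.42.0, Fisher's exact test on pooled counts, limma on log2(TPM + 1), a replicate block and each library left out.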

Additional observations from a re-analysis of the deposited data

How the results depend on the processing

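Of the 236 tested miRNAs, 58 were called in edgeR with the clean reads as library size, and 0 of the 9 tested members. The summed reads called 67 miRNAs and 2 members, TMM factors 64 and 3, and upper quartile factors 77 and 4. DESeq2's size factors called 66 miRNAs and 3 members, and DESeq2's test 90 and 3. Fisher's exact test on pooled counts called 205 of the 236 miRNAs and 9 members. With 1 library left out in turn, 3 to 103 miRNAs and 0 to 4 members were called. The count of members stayed at 0 with raw reads (75 miRNAs called), no filter (48), at least 10 reads in every library (61) and limma (69). Under the summed reads, TMM, DESeq2's size factors, DESeq2's test and upper quartile factors, the log2 fold change of miR-454-3p turned positive, at 0.078, 0.14, 0.16, 0.16 and 0.54, as did that of miR-130a-3p, at 0.075, 0.15, 0.17, 0.17 and 0.56. Upper quartile factors also turned miR-130b-3p, miR-301a-3p and miR-301b-3p positive, at 0.23, 0.25 and 0.35. These scalings moved the median of all tested miRNAs in the same direction.

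The 23 called arm ratios became 10 with a minimum of 1 read and 9 to 25 with 1 library left out. At that minimum the gains of 1.21 in miR-130a and 1.67 in miR-301a were no longer called. With 1 library left out, the gains ranged from 0.91 to 1.55 in miR-130a, called in 2 of 6 fits, from 1.69 to 2.23 in miR-130b, called in 6, and from 1.26 to 1.88 in miR-301a, called in 5. Of the 3p pairs, those of miR-454-3p over miR-130a-3p (−0.11 to 0.16), miR-130b-3p over miR-301a-3p (−0.21 to 0.13) and miR-301a-3p over miR-301b-3p (−0.25 to 0.12) changed sign, as did the share of miR-130a-3p (−0.15 to 3.33 percentage points).

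Replicate numbers are shared between the ages but mark different hens, and same-numbered libraries did not deviate together throughout. Their correlation was −0.13 for number 1, but 0.24 and 0.22 for numbers 2 and 3, the highest of all pairs. The mean was 0.11 for same-numbered libraries and −0.055 for the other pairs. With a block for the replicate number, 90 miRNAs and 2 members (miR-130b-3p and miR-301a-3p, as lower) were called, and the 3 arm ratios stayed called. Depth limits the 5p products of miR-301b and miR-454, at 3 to 15 reads in a library.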
